A study of Rattus norvegicus with 34 samples.

Results

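The retinas of 9-week-old PKD rats that had received intravitreal clodronate-coated liposomes were compared with those of uninjected PKD rats of the same age. The comparison was defined by strain and treatment in the sample labels and covers 11 of the 34 samples of the series, 5 labelled PKD + Clodronate and 6 labelled PKD. All 44 specific genes of the card were considered, of 48 wells in all. Both groups are homozygous male rats of the strain PKD2(HA-1/703-CMV-247), which overexpress a truncated polycystin-2 from the CMV promoter, a promoter that is not restricted to any retinal cell type. The treated rats received 3 µl at 4 and 8 weeks of age. The untreated rats were not injected, so needle, liposome and clodronate cannot be told apart in this comparison alone. Uninjected Sprague Dawley rats (SD, n = 6) and PKD rats injected with empty liposomes on the same schedule (PKD + Controlliposomes, n = 6) are given for orientation. PBS-injected PKD rats and clodronate-treated SD rats were not analysed here.

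The PKD rat is a model in which photoreceptors degenerate, glia become reactive and retinal capillaries then regress. Microglia are the resident macrophages of the retina and carry complement, Fc and scavenger receptors. Liposomes are taken up by phagocytes, and clodronate released inside them is toxic to these cells, so clodronate liposomes are widely used to deplete macrophages. The genes on the card belong to the pathways that link these cells, namely complement, cytokines, glial acute phase genes, trophic factors of photoreceptors and Müller glia, and vascular factors. No gene that defines photoreceptors, retinal neurons, endothelium or pericytes is on the card, so the tissue label could be checked only through its microglial and glial genes, all of which had a Cq in each of the 11 rats.

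Each well gave a quantification cycle (Cq), the PCR cycle at which the signal crosses a threshold, so that a lower Cq stands for more transcript. The 528 wells of these 11 rats gave Cq values between 6.36 and 34.97, and 23 wells stayed empty. Expression is the average Cq of the 4 reference wells (18S, *B2m*, *Mrpl19*, and *Ywhaz*) less that of the gene, where 1 unit is a doubling (log2) if every PCR cycle doubles the product. The mean of the untreated PKD rats was set to 0 for each gene, and all expression values are relative to it. The rats of a group are numbered in the order of the deposited table, which pairs no rats between groups. Each gene was read in 1 well per rat, and how many template copies this reflects is not known.

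The reference wells were examined first, since they enter every value. Their mean Cq was 16.5 ± 0.548 (SD, n = 5) in clodronate-treated and 16.5 ± 0.221 (SD, n = 6) in untreated rats. The difference in means of −0.0112 cycles was smaller than either SD, and the two-sided exact permutation test of this difference gave p = 0.952. The difference between the SDs was not tested. The clodronate-treated rats differed more among themselves, with means of 15.7, 16.2, 16.8, 17.2 and 16.5 in rats 1 to 5, against 16.3 to 16.9 in the untreated rats. *B2m*, the light chain of MHC class I, was at 16.6, 16.5, 17.0, 18.2 and 17.5 cycles in the 5 treated rats and between 17.3 and 17.9 in the untreated ones. The ribosomal 18S wells were at 6.45, 7.84, 8.61, 6.84 and 6.77 cycles and *Mrpl19*, a mitochondrial ribosomal protein, at 22.8, 23.0, 23.3, 24.4 and 23.7. *Ywhaz*, an adaptor protein, was at 17.0, 17.4, 18.2, 19.1 and 18.02 cycles. The treated rats thus surrounded the untreated ones for each of the reference genes except 18S, which the untreated rats undercut at 6.36, and the smallest of 5 exact permutation p-values was 0.284, for *B2m* (adjusted p = 0.952). Rat 1 had the lowest reference mean of all treated rats and rat 4 the highest.

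**Figure D1:**
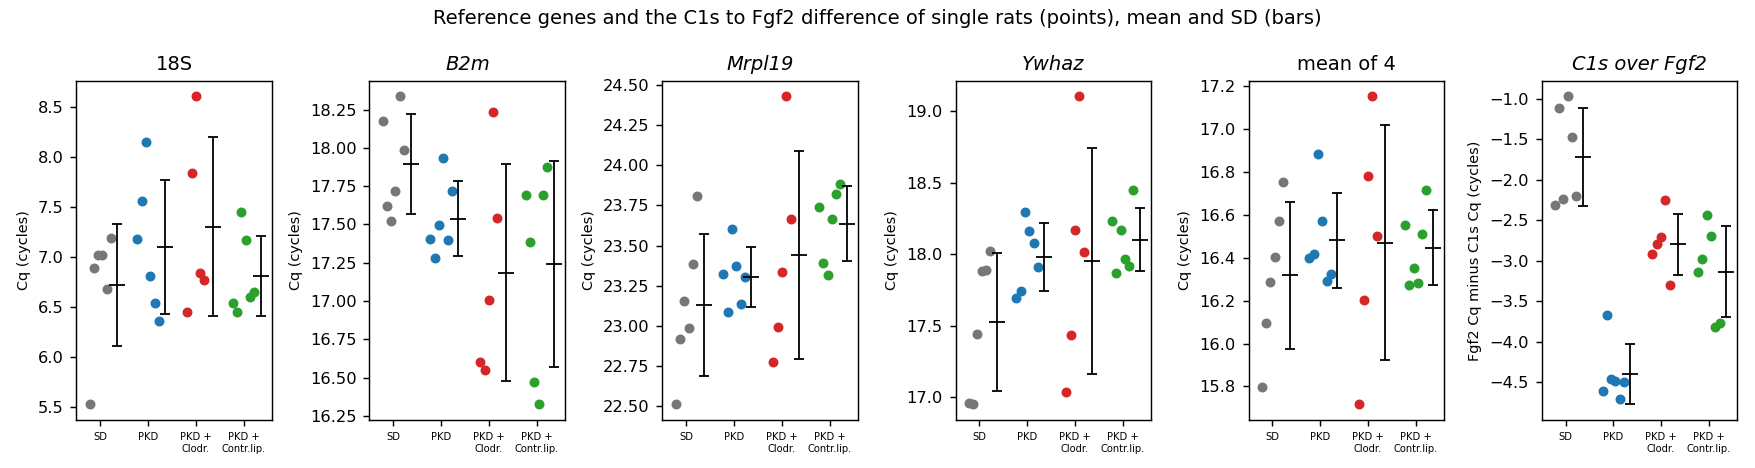
Cq values in cycles of the 4 reference genes, of their mean and, in the last panel, the Cq of *Fgf2* minus the Cq of *C1s*, for single rats (points) of the SD, PKD, clodronate-treated and control liposome-treated groups with mean and SD (bars). The axes of the panels differ and do not start at 0. The reference genes of the clodronate-treated rats are spread over a wider range than those of the untreated PKD rats. The *C1s* to *Fgf2* difference, whose genes were chosen with their values known, does not overlap between these groups.

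Of the 44 genes, 41 were tested, namely those with 3 or more Cq values in each of the 4 groups. At an adjusted p of 0.05 in limma, 0 of the 41 genes (0%) passed, 5 (12.2%) had an unadjusted p under 0.05, and 8 (19.5%) had an exact permutation p under 0.05 before adjustment. The groups did not overlap for 1 gene, *Fgf2*, which is 2.44% of those tested. The lowest adjusted p was 0.391 by limma, while exact permutation gave 0.0887. *C1s* and *Fgf2* passed in limma with the mean of the specific genes as the normalizer (adjusted p = 0.0216 and 0.0428) and, at 0.0319 each, when 18S was dropped and SD and control liposome-treated rats were not in the fit. The estimates lay between −0.97 (*Il10*) and 0.93 (*C1s*) on the log2 scale, 22 above and 19 below 0, with a median of 0.020. The 95% interval of a single gene had a median half-width of 0.662 log2 units. It lay within 1 log2 unit on either side of 0 for 20 genes and within 2 for all 41, so that a change of 4-fold or more lay outside the interval of every gene tested, and a doubling or halving lay inside it for the other 21.

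**Figure D2:**
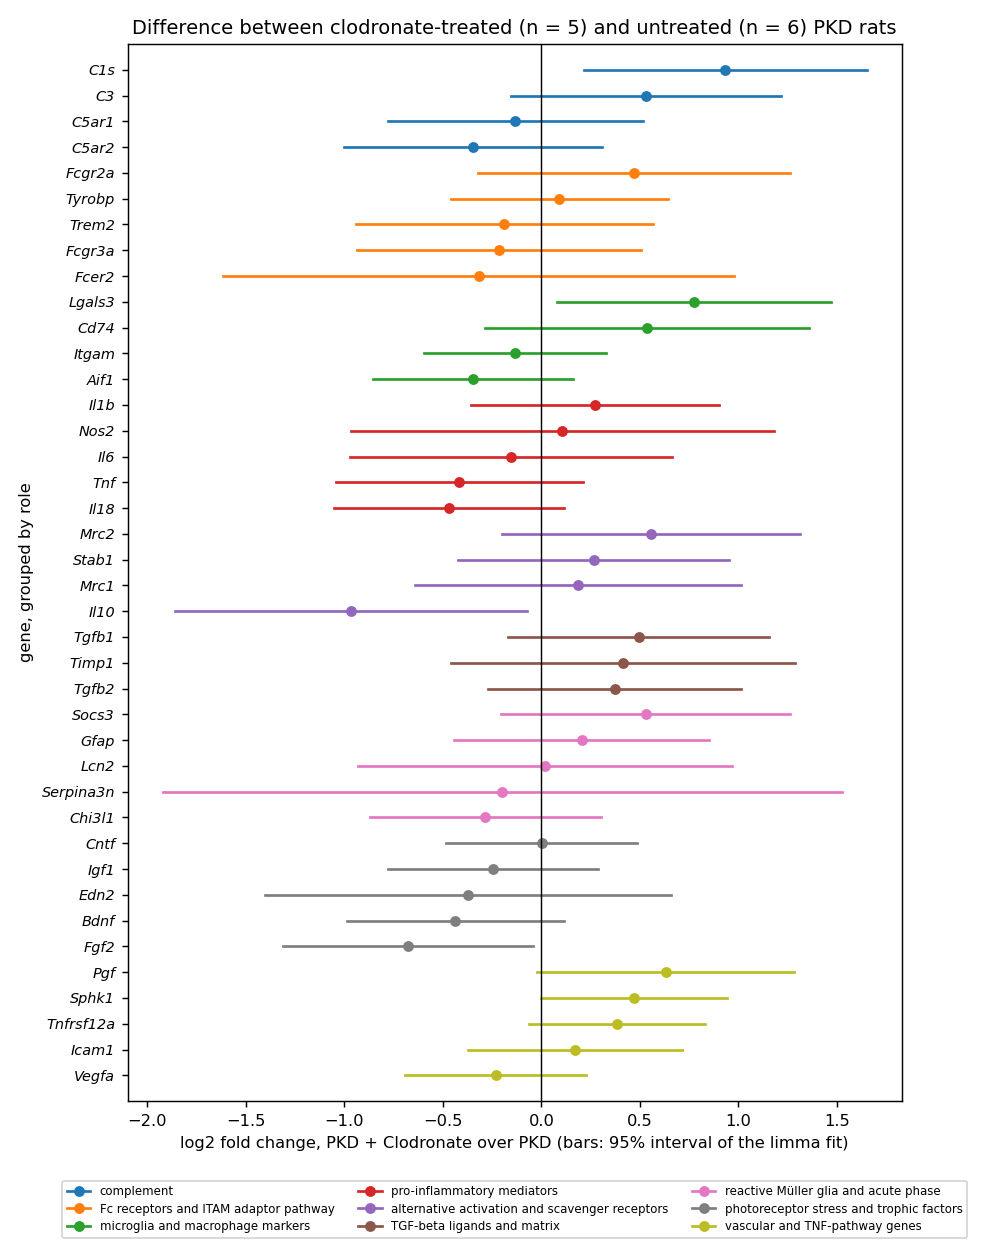
Log2 fold change of clodronate-treated (n = 5) over untreated PKD rats (n = 6) for 40 of the 41 tested genes (points) with the 95% interval of the limma fit (bars), coloured by role. The intervals of *C1s*, *Lgals3*, *Il10*, *Fgf2*, and *Sphk1* leave out 0 before adjustment, and none of these genes passed an adjusted p of 0.05.

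*C1s* encodes a serine protease of the first complement component, which starts the classical cascade. Its expression was 0.34, 1.28, 1.43, 1.06 and 0.55 in the 5 clodronate-treated rats. The untreated rats ranged from −0.32 to 0.56 (median −0.084). Treated rats 1 and 5 were below the highest untreated rat, while the other untreated rats lay below every treated rat. The log2 fold change was 0.93 (standard error, SE, 0.348, 95% interval 0.22 to 1.65), that is 1.91-fold with an interval of 1.16 to 3.14. The adjusted p was 0.391 in limma, and the exact permutation test gave p = 0.00866 before and 0.177 after adjustment. *C1s* was 0.86 ± 0.539 (SD, n = 6) in control liposome-treated rats and −0.44 ± 0.879 in SD rats. Clodronate minus control liposomes was 0.070 (95% interval −0.65 to 0.79, adjusted p = 0.886).

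*C3*, the central component of all complement routes, was at −0.13, 0.61, 1.24, 0.76 and 0.17 in the treated rats and from −0.17 to 0.16 (median 0.014) in the untreated rats. The spread was 0.532 (SD) in treated and 0.137 in untreated rats, and treated rat 1 lay within the untreated range. It had a log2 fold change of 0.53 (adjusted p = 0.472, SE 0.333), with an exact permutation p of 0.0368 before adjustment. The control liposome-treated rats were at 1.16 ± 0.592 (SD, n = 6) and SD rats at −1.13 ± 0.774, and clodronate minus control liposomes was −0.63 (95% interval −1.32 to 0.056, adjusted p = 0.410). *C5ar2*, a receptor of the C5a fragment that does not couple to G proteins, was at −0.88, −0.21, 0.10, −0.32 and −0.44 in the treated rats. The untreated rats ranged from −0.48 to 0.85 (median −0.27) and covered the treated range except rat 1, the lowest. *C5ar2* and *C5ar1*, the signalling C5a receptor, had log2 fold changes of −0.35 and −0.13, with adjusted p-values of 0.610 and 0.796. *C5ar2* was 0.48 ± 0.507 (SD, n = 6) in control liposome-treated and −0.24 ± 0.606 in SD rats. Of the 4 complement genes, 0 passed in either direction, with a median of 0.20 beside 0.020 over all tested genes.

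*Fgf2*, the basic fibroblast growth factor that protects photoreceptors and acts on endothelium, was at −1.14, −0.33, −0.26, −1.09 and −0.55 in the 5 clodronate-treated rats. The untreated rats ranged from −0.17 to 0.14 (median 0.013), and the highest treated rat lay below the lowest untreated rat. The treated rats fell into rats 1 and 4 near −1.1 and the other 3 between −0.55 and −0.26. The log2 fold change was −0.68 (SE 0.309, 95% interval −1.31 to −0.040), that is 0.626-fold of the untreated level. The adjusted p in limma was 0.391. The exact permutation test gave p = 0.00216, the smallest that 5 rats against 6 allow, and 0.0887 after adjustment. The SDs were 0.416 in treated, 0.108 in untreated and 0.905 in SD rats, and limma weighs them in a single estimate of the spread. Control liposome-treated rats ranged from −0.54 to −0.29 (median −0.40), also below every untreated rat, and clodronate minus control liposomes was −0.27 (95% interval −0.91 to 0.36, adjusted p = 0.600). The SD rats were at −3.13 ± 0.905. Among them, SD rat 3 was at −1.46 and the others between −4.04 and −2.91. SD rat 3 was also the highest of its group for *Edn2* (−1.87, the others from −6.82 to −3.91), *Gfap* (−0.83, from −3.46 to −2.68), *Socs3* (−2.39, from −5.51 to −3.56) and *Serpina3n* (−0.11, from −6.80 to −3.01). Without this rat in the fit, still 0 of the 41 genes passed for clodronate over untreated, with a limma adjusted p of 0.136 for both *C1s* and *Fgf2*.

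The difference between the *C1s* and *Fgf2* wells of a card needs no reference gene, and is given here without a test, since both genes were chosen with their values known. The Cq of *Fgf2* minus that of *C1s* was −2.92, −2.79, −2.71, −2.25 and −3.30 cycles in the clodronate-treated rats. It was from −4.71 to −3.67 in the untreated rats, so that the lowest treated rat was above the highest untreated rat. The means were −2.80 ± 0.377 (SD, n = 5) and −4.40 ± 0.371 (SD, n = 6). Control liposome-treated rats were at −3.14 ± 0.562, between −3.82 and −2.44, and overlapped with both PKD groups. SD rats were at −1.72 ± 0.607. Both comparisons with untreated rats share the same 6 untreated rats.

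*Edn2*, the endothelin that stressed photoreceptors release, was at −0.83, −0.81, −0.30, −0.14 and 0.21 in the treated rats and from −0.52 to 0.30 (median 0.056) in the untreated rats, with rats 1 and 2 below every untreated rat. It had a log2 fold change of −0.37 (adjusted p = 0.702, SE 0.50), against a level of −4.60 ± 1.68 (SD, n = 6) in SD and 0.14 ± 0.194 in control liposome-treated rats. *Bdnf*, a neurotrophin, had −0.44 (adjusted p = 0.472), and without treated rat 2, the lowest of all 11 rats, −0.17. *Igf1*, the insulin-like growth factor, had −0.24 (adjusted p = 0.632). *Cntf*, the ciliary neurotrophic factor, had 0.0013 (SE 0.236), a sign that turned under other reference sets. Of the 5 genes of photoreceptor stress and trophic support, with *Fgf2*, 0 passed. Their estimates were below 0 for 4 of 5, with a median of −0.37, beside 19 of 41 and 0.020 over all tested genes.

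**Figure D3:**
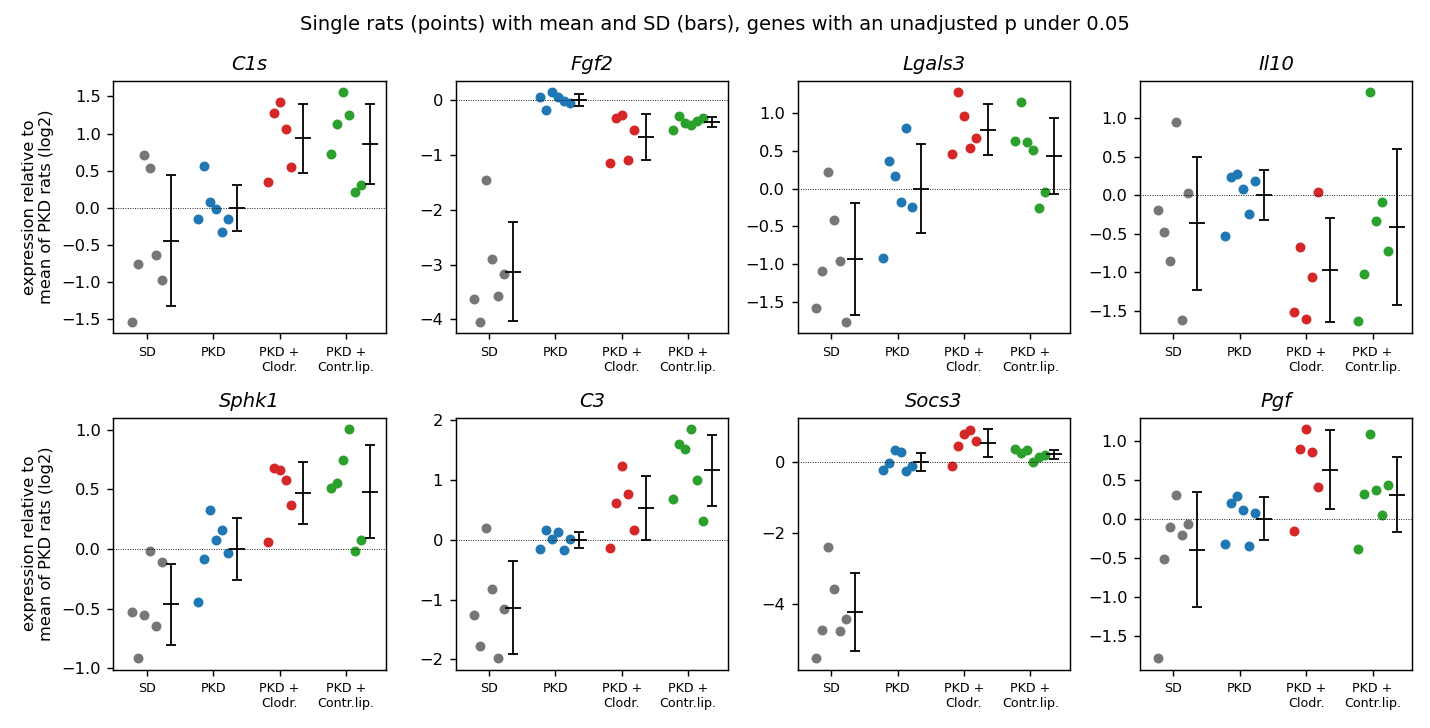
Expression on the log2 scale relative to the mean of untreated PKD rats for the 8 genes with an unadjusted p under 0.05 in limma or in the exact permutation test, as single rats (points) of the 4 groups with mean and SD (bars). The axes of the panels differ. *Fgf2* is the gene for which all clodronate-treated rats lie below all untreated PKD rats.

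Among the microglia and macrophage markers, *Lgals3*, a galectin of phagocytic microglia and macrophages, was at 0.45, 1.27, 0.96, 0.54 and 0.66 in the treated and from −0.91 to 0.81 (median −0.0081) in the untreated rats. A single untreated rat, rat 5, reached into the treated range. The log2 fold change was 0.78 (adjusted p = 0.391, SE 0.338), with an exact permutation p of 0.0281 before adjustment. *Cd74*, the invariant chain of MHC class II and a marker of activated microglia, was at −0.52, 1.07, 0.76, 1.13 and 0.24 in the treated rats. It ranged from −0.37 to 0.41 (median −0.010) in the untreated rats, so that rats 2, 3 and 4 were above them and rat 1 below. It had a log2 fold change of 0.54 (SE 0.399, 95% interval −0.29 to 1.36, adjusted p = 0.492). *Lgals3* was 0.43 ± 0.505 (SD, n = 6) in control liposome-treated and −0.93 ± 0.738 in SD rats. For *Cd74* these levels were 0.36 ± 0.623 and 0.11 ± 1.01.

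*Aif1*, which encodes Iba1, was at −0.42, −0.12, −1.10, 0.18 and −0.27 in the treated and from −0.55 to 0.47 (median 0.058) in the untreated rats, with a log2 fold change of −0.35 (adjusted p = 0.492, SE 0.247). Without treated rat 3, the lowest of the 11 rats, it was −0.16. *Itgam*, the CD11b chain of complement receptor 3, was at −0.37, 0.10, 0.020, −0.20 and −0.22 in the treated and from −0.27 to 0.23 (median −0.0034) in the untreated rats. Both groups overlapped, and the log2 fold change was −0.13 (95% interval −0.59 to 0.33, adjusted p = 0.738). In SD rats *Aif1* was −0.12 ± 0.382 and *Itgam* −0.83 ± 0.491 (SD, n = 6). In whole retina, the number of microglia and the transcript per microglial cell cannot be told apart, and neither gene passed against untreated rats. Of the wider list of 9 microglia and macrophage markers, which adds *Tyrobp*, *Trem2*, *C5ar1*, *Mrc1*, and *Stab1*, 0 passed, with 5 above and 4 below 0 and a median of 0.091. Their mean per rat was −0.31, 0.50, 0.13, 0.36 and −0.099 in clodronate-treated rats 1 to 5, and between −0.39 and 0.22 in the untreated rats. None of the 9 was absent from any of the rats compared.

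Against control liposomes, 2 of 41 genes (4.88%) passed in the same fit, and these were *Aif1* and *Itgam*, the same 2 (4.88%) for which the groups did not overlap. *Aif1* was from 0.29 to 0.86 (median 0.68) in control liposome-treated rats, and the clodronate-treated rats were lower by a log2 fold change of −0.99 (SE 0.247, limma adjusted p = 0.0194, exact permutation p = 0.00216). *Itgam* was from 0.36 to 1.08 (median 0.69) with control liposomes, a difference of −0.81 (SE 0.224, adjusted p = 0.0278, exact permutation p = 0.00216). No gene passed when B2m was left out of the reference genes, or when control liposome rat 2 or 4 or clodronate rat 1 or 3 was left out, where the adjusted p reached 0.0796 for *Aif1* and 0.204 for *Itgam*. *Itgam* alone was also lost without control liposome rat 1 or 3, without clodronate rat 5 and without Mrpl19 among the reference genes, with an adjusted p between 0.0509 and 0.0870. *Trem2*, a lipid receptor of microglia, *Fcgr3a*, a low-affinity IgG receptor, and *C5ar2* had differences of −0.93, −0.89 and −0.83, each with an adjusted p of 0.147. *C5ar2* passed without 18S (adjusted p = 0.0184), with *Mrpl19* and *Ywhaz* as the only reference genes (0.0416) and, without 18S, when just the compared groups were fitted (0.0132). *Fcgr3a* passed when just the compared groups were fitted, with 18S (adjusted p = 0.0399) and without it (0.0132), and *Trem2* passed without clodronate rat 4 (0.0377). The 5 clodronate-treated rats are the same in both contrasts. *Lgals3* and *Cd74* were at 0.34 and 0.17 in this contrast, with adjusted p-values of 0.600 and 0.871. The untreated PKD rats, whose mean is 0, ranged from −0.55 to 0.47 for *Aif1* and from −0.27 to 0.23 for *Itgam*. Every control liposome-treated rat thus lay above every untreated rat for *Itgam*, though not for *Aif1*. The clodronate-treated rats overlapped with the untreated rats for both genes, with means of −0.35 and −0.13.

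**Figure D4:**
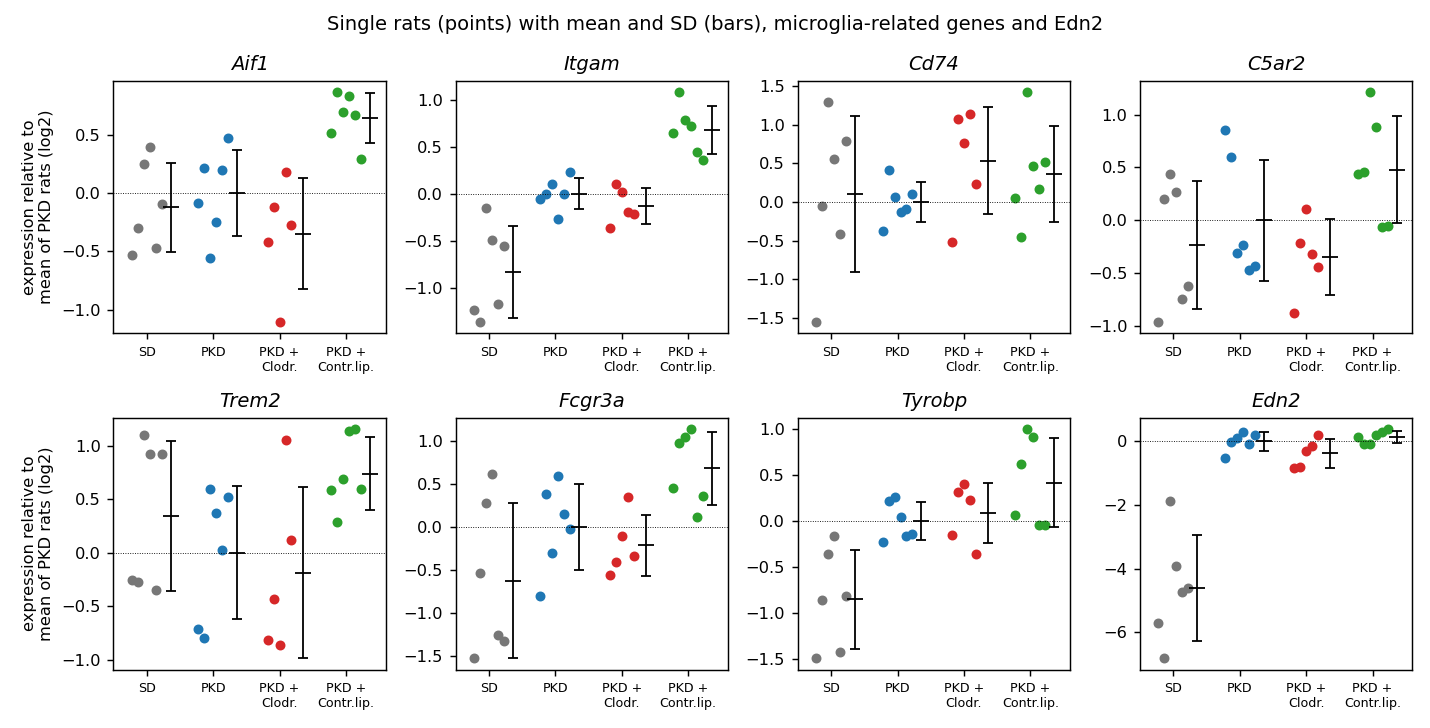
Expression on the log2 scale relative to the mean of untreated PKD rats for 7 microglia-related genes and *Edn2*, as single rats (points) of the 4 groups with mean and SD (bars). The axes of the panels differ. All clodronate-treated rats lie below all control liposome-treated rats for *Aif1* and *Itgam* and overlap with the untreated PKD rats.

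Among the Fc receptors and their signalling partners, 2 of 5 estimates were above and 3 below 0. *Fcgr2a* had a log2 fold change of 0.47 (adjusted p = 0.554), *Fcgr3a* of −0.22 (adjusted p = 0.738) and *Fcer2*, the low-affinity IgE receptor, of −0.32 (adjusted p = 0.768). *Fcer2* was read late, at a mean Cq of 33.8 in treated and 33.5 in untreated rats. *Tyrobp*, the ITAM adaptor through which *Trem2* signals, had 0.091 (95% interval −0.46 to 0.64), and *Trem2* had −0.19 (95% interval −0.94 to 0.57). For *Trem2* the estimate was −0.50 without treated rat 4 and −0.018 without treated rat 3. Of the 5 genes 0 passed, and the median was −0.19.

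Among the pro-inflammatory mediators, *Il1b* was at −0.27, 0.66, 0.73, 0.033 and 0.21 in the treated and from −0.38 to 0.23 (median 0.022) in the untreated rats, with a log2 fold change of 0.27 (adjusted p = 0.648). *Tnf* was at −0.065, −1.26, −0.68, 0.38 and −0.46 in the treated and from −0.44 to 0.68 (median −0.13) in the untreated rats, where rats 2, 3 and 5 were below every untreated rat, and had −0.42 (adjusted p = 0.492). *Il6* was at −0.19, −0.83, 0.32, −0.058 and −0.0046 in the treated and from −0.37 to 0.62 (median −0.20) in the untreated rats, with −0.15 (adjusted p = 0.801). For each of these cytokines the treated and untreated rats overlapped. *Tnf* was read late, at a mean Cq of 33.9 in treated and 33.5 in untreated rats, and so was *Il6*, at 32.5 and 32.4. The median Cq of the specific genes was 24.2 in these rats. *Il1b* was 0.19 ± 0.683 (SD, n = 6) in control liposome-treated and −0.56 ± 0.535 in SD rats. For *Tnf* these levels were 0.11 ± 0.443 and −0.11 ± 0.484. For *Il6* these levels were 0.56 ± 0.559 and −0.91 ± 1.08. *Il18*, released by the inflammasome, had a log2 fold change of −0.47 (adjusted p = 0.472, SE 0.283) and a treated SD of 0.182 beside 0.577 in untreated rats. *Nos2*, the inducible nitric oxide synthase, had 0.11 (SE 0.521), and its values spread over 0.926 (SD) in treated and 1.05 in untreated rats. Of these 5 genes 0 passed, and the median was −0.15.

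*Il10*, the main anti-inflammatory cytokine, had the lowest estimate of the card. Its expression was −1.52, −0.68, −1.61, −1.06 and 0.036 in the treated rats and from −0.53 to 0.28 (median 0.13) in the untreated rats, so that rats 1 to 4 were below every untreated rat and rat 5 was among them. The log2 fold change was −0.97 (SE 0.433, 95% interval −1.86 to −0.075, adjusted p = 0.391), and the exact permutation test gave p = 0.0152 before adjustment. Its mean Cq was 33.3 in treated and 32.3 in untreated rats. Control liposome-treated rats covered the range from −1.63 to 1.33 (median −0.53) and SD rats that from −1.62 to 0.94 (median −0.34), wider than both. Among the other genes of alternative activation, the scavenger and mannose receptors *Mrc1*, *Mrc2*, and *Stab1* had 0.19, 0.56 and 0.27, with adjusted p-values from 0.472 (*Mrc2*) to 0.781 (*Mrc1*). *Mrc2* varied little among the treated rats, at 0.60, 0.55, 0.75, 0.57 and 0.32, and over the range from −0.83 to 0.71 (median 0.010) among the untreated rats. Of the 5 tested genes of this group 0 passed, with a median of 0.19.

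The 3 untested genes of the card belong to the same group. *Chi3l3*, a chitinase-like gene of alternatively activated macrophages, gave a Cq in 4 of 6 untreated rats and in 0 of 5 clodronate-treated, 0 of 6 control liposome-treated and 0 of 6 SD rats. The difference in detection between treated and untreated PKD rats did not pass Fisher's exact test (p = 0.0606, adjusted over 3 genes p = 0.182). *Retnla* gave a Cq in 2 of 6 untreated and 0 of 5 treated rats (Fisher's exact test, p = 0.455). *Il13*, a type 2 cytokine, gave a Cq in 3 of 6 untreated rats, with a mean of 29.8 cycles, and in 1 of 5 treated rats (Fisher's exact test, p = 0.545). That well, in treated rat 2, was at 15.2 cycles. Whether this Cq is a failed reading of a single well is not known, and no difference in expression is drawn from it. An empty well shows that no signal was read within 40 cycles and not that the transcript is absent.

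All 3 genes of TGF-beta ligands and matrix had estimates above 0, beside 22 of 41 over all tested genes, and 0 of 3 passed. The log2 fold changes were 0.49 for *Tgfb1* and 0.37 for *Tgfb2*, the ligands, and 0.41 for *Timp1*, an inhibitor of matrix metalloproteinases. Their adjusted p-values were 0.472, 0.554 and 0.630, and the median was 0.41 beside 0.020 over all tested genes. Leaving out 1 rat lowered the estimates to as little as 0.31 for *Tgfb1*, 0.30 for *Tgfb2* and 0.20 for *Timp1*. *Tgfb1* was at −0.021, 1.09, 1.25, 0.39 and −0.24 in the treated rats, and untreated rat 3 reached 1.10 while the other untreated rats were at or below −0.049.

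Of the genes of reactive Müller glia and of the acute phase response, 3 had estimates above and 2 below 0. *Gfap*, the intermediate filament of reactive glia, was at −0.29, 0.31, 0.52, 0.32 and 0.16 in the treated and from −0.13 to 0.21 (median −0.055) in the untreated rats. Rats 2, 3 and 4 were above every untreated rat and rat 1 was below them, and the log2 fold change was 0.21 (SE 0.314, 95% interval −0.44 to 0.85, adjusted p = 0.736). *Socs3*, the feedback inhibitor of Il6 and Stat3 signalling, was at −0.10, 0.46, 0.79, 0.91 and 0.59 in the treated and from −0.25 to 0.34 (median −0.081) in the untreated rats. Rats 2 to 5 were above every untreated rat, with a log2 fold change of 0.53 (adjusted p = 0.472, SE 0.356) and an exact permutation p of 0.0281 before adjustment. *Serpina3n*, a serine protease inhibitor, was at −1.41, −0.11, 0.17, 0.34 and 0.010 in the treated rats and from −1.28 to 1.88 (median −0.074) in the untreated rats, a difference of −0.20 (95% interval −1.92 to 1.52). *Gfap* was 0.33 ± 0.274 (SD, n = 6) in control liposome-treated and −2.62 ± 0.928 in SD rats. For *Socs3* these levels were 0.22 ± 0.129 and −4.22 ± 1.10. For *Serpina3n* these levels were 0.86 ± 1.43 and −4.15 ± 2.34. *Chi3l1*, a chitinase-like gene of reactive glia, and *Lcn2*, an iron-binding lipocalin, had −0.28 and 0.020, with adjusted p-values of 0.630 and 0.990. Of the 5 genes 0 passed, with a median of 0.020.

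Of the vascular and TNF-pathway genes, 4 of 5 had estimates above 0 and 0 passed, with a median of 0.38, beside 22 of 41 and 0.020 over all tested genes. *Pgf*, the placental growth factor, was at −0.15, 0.89, 1.15, 0.85 and 0.41 in the treated and from −0.35 to 0.29 (median 0.092) in the untreated rats, so that rats 2 to 5 lay above the untreated range and rat 1 within it. It had a log2 fold change of 0.63 (adjusted p = 0.399, SE 0.318), with an exact permutation p of 0.0390 before adjustment. *Sphk1*, which produces sphingosine 1-phosphate, was at 0.060, 0.68, 0.66, 0.58 and 0.37 in the treated and from −0.44 to 0.32 (median 0.021) in the untreated rats. The difference was 0.47 (adjusted p = 0.399, SE 0.228), with an exact permutation p of 0.0195 before adjustment. *Vegfa*, the main endothelial growth factor, was at −0.46, 0.26, 0.040, −0.80 and −0.21 in the treated and from −0.33 to 0.37 (median −0.020) in the untreated rats, with a log2 fold change of −0.23 (95% interval −0.69 to 0.23, adjusted p = 0.630). *Icam1*, the endothelial and glial adhesion molecule, was at −0.34, 0.59, 0.29, 0.28 and 0.042 in the treated and from −0.38 to 0.23 (median 0.026) in the untreated rats, with a log2 fold change of 0.17 (95% interval −0.37 to 0.71). *Pgf* was 0.31 ± 0.484 (SD, n = 6) in control liposome-treated and −0.40 ± 0.733 in SD rats. For *Sphk1* these levels were 0.48 ± 0.390 and −0.46 ± 0.338. For *Vegfa* these levels were −0.48 ± 0.225 and 0.18 ± 0.304. For *Icam1* these levels were 0.023 ± 0.326 and −1.06 ± 0.614. *Tnfrsf12a*, the TWEAK receptor, had 0.38 (adjusted p = 0.472, SE 0.217).

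The clodronate-treated rats were not alike. Over the 41 genes, the SD was larger in treated than in untreated rats for 27 genes, with a median SD of 0.425 and 0.324. Rat 1 was above every untreated rat for 0 genes and below every untreated rat for 14. Rats 2 and 3 were each above every untreated rat for 16 genes and below for 6, rat 4 for 11 and 4, and rat 5 for 8 and 4. Control liposome-treated rats also varied, with 7 to 25 genes above and 2 to 8 below every untreated rat. Of the 6 genes with positive estimates and an unadjusted p under 0.05 in either test, namely *C1s*, *C3*, *Lgals3*, *Pgf*, *Socs3*, and *Sphk1*, rat 1 had the lowest treated value for every gene. It also had the lowest mean reference Cq of the treated rats, whose part in its low values was not tested. In rats 2 and 3 the mean of the other 3 reference genes was 11.2 and 10.9 cycles above 18S, less than in every untreated rat (11.6 to 13.3). These counts were repeated without 18S among the reference genes, a planned setting whose use for single rats was chosen after seeing the data. Rat 2 was then above every untreated rat for 10 genes and below for 12, and rat 3 for 4 and 11. Rat 4 was above for 17 and below for 2, and rat 5 for 10 and 2. For rat 1 these counts were 0 and 14 with and without 18S, so that the order of rats 2 to 5 depended on the reference genes. Without rat 1, the log2 fold change was 1.08 for *C1s* and −0.56 for *Fgf2*, and 0 genes passed (4 with an unadjusted p under 0.05).

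**Figure D5:**
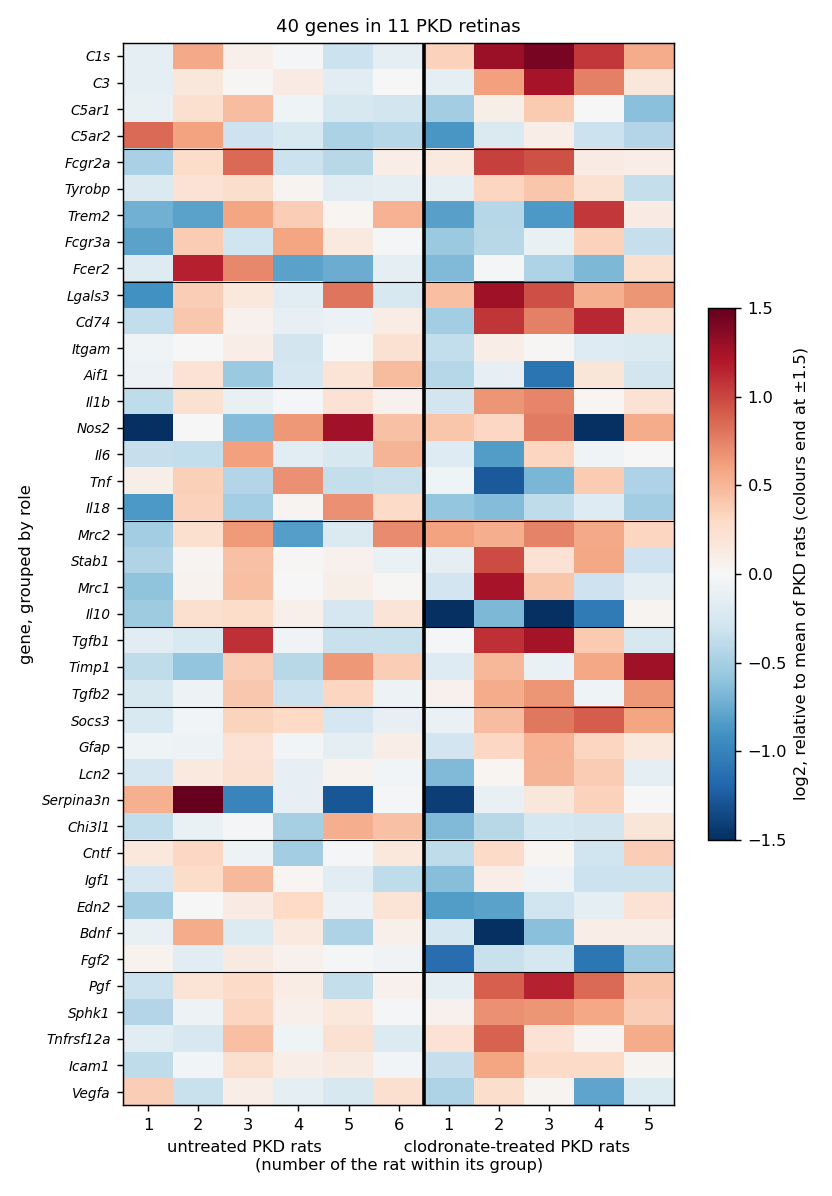
Expression of 40 of the 41 tested genes (lines, grouped by role) in the 6 untreated and 5 clodronate-treated PKD rats (columns), as log2 units relative to the mean of the untreated rats, with colours ending at 1.5 on either side. *C1s* and *Lgals3* are above the untreated mean in all 5 treated rats and *Fgf2* is below it in all 5, while treated rat 1 is above every untreated rat for 0 genes.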

How the data were processed

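Retinal RNA of single rats was reverse transcribed, pre-amplified for 14 cycles and measured on TaqMan microfluidic cards with 48 wells and at most 40 cycles. The authors deposited the Cq of every well as read by the thermocycler software, in PCR cycles and before normalization. Pre-amplification adds the same cycles to every gene only if all amplify alike. Signed fold changes of PKD over SD and of PKD + Clodronate over PKD were also deposited and were not used. Columns carry animal numbers, which a sample list in the supplement of the paper assigns to groups. Another 11 of 34 columns were not used. Wells were named by matching their Cq values to the same supplement (48 of 48 within 0.001 cycles).

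Minus delta Cq was fitted in R 4.3.3 by limma 3.58.1, with statmod 1.5.0, over 4 groups (23 rats), two-sided, with Benjamini–Hochberg adjustment over genes with at least 3 Cq values per group and a significance level of 0.05. Exact permutation tests (two-sided) and Fisher's exact tests were run beside it. Nothing in the labels says that rats came from separate litters. The procedure was also run on simulated data, with independent genes and the same SD in all groups. That run does not cover genes whose SD differs between groups, such as *Fgf2*. Alternatives comprised 6 other normalizers, the treatment of empty or late wells, filters, other fits and tests, and leaving out each rat of the contrast. Leaving out each of the other rats in the fit was added after seeing the data. Python 3.11.15 and matplotlib 3.10.9 were used for the figures. Values per rat are given for genes with an unadjusted p under 0.05 in either test and for 14 genes listed by name, which leave out the Fc receptor and TGF-beta groups. *Tgfb1*, *Mrc2*, *Il18*, and treated rat 2 for *Bdnf* were added after their values were seen. Of the tested genes, 1 enters the fit and the counts but is not reported here. The members, gene lists and tests were chosen with earlier results of these data known.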

Additional observations from a re-analysis of the deposited data

Results flagged for a closer look

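In 91 groups of 4 to 6 values, the lowest and highest rat were checked for a gap to the next rat that took up most of the range. There were 4 such values, where chance gives about 4.55, that is 1 in 20 groups. In clodronate-treated rat 4, *Nos2* was −1.52, while the other 4 lay between 0.31 and 0.78. In clodronate-treated rat 1, *Serpina3n* was −1.41, against −0.11 to 0.34 elsewhere in the group. *Tgfb1* was at 1.10 in untreated rat 3 and at −0.34 to −0.049 in the others. *Chi3l3* was at −5.21 in untreated rat 1 and at 1.26 to 2.13 in the other 3 untreated rats that gave a Cq, all relative to the mean of these 4.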

How the results depend on the processing

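Between clodronate-treated and untreated PKD rats, 0 genes passed in 12 of the 16 alternatives with all rats and in all 23 fits without 1 rat (lowest 0, highest 0), with 1 to 6 genes at an unadjusted p under 0.05 in the latter. The 12 of these that leave out a rat of the other groups were chosen after seeing the data. The count was 2 with the mean of the specific genes as normalizer, *C1s* at 0.87 (adjusted p = 0.0216) and *Fgf2* at −0.73 (0.0428). It was 2 in a fit of the compared groups without 18S, at 0.86 and −0.75 (0.0319 for both), whereas that fit with 18S gave 0 genes, 8 at an unadjusted p under 0.05, and an adjusted p of 0.0508 for *C1s* and 0.0795 for *Fgf2*. It was 1 with empty wells set to 40 (*Chi3l3* at −6.84, adjusted p = 0.0316) and 1 with no minimum of Cq values (*Il13*, which rests on a single treated rat). Both of these test genes that were left out otherwise. The cause of the other calls was not tested. Over the 16 alternatives the adjusted p was 0.0216 to 0.475 for *C1s* and 0.0319 to 0.475 for *Fgf2*. Leaving out B2m moved the median of all genes from 0.020 to 0.13.

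Against control liposomes, 2 genes passed in the reported fit, 0 without B2m, 1 without Mrpl19 and 4 in a fit of the compared groups without 18S. Fits without 1 rat gave 0 to 3 genes, 0 without control liposome rat 2 or 4 or clodronate rat 1 or 3, and 3, with *Trem2*, without clodronate rat 4. The count was 2 without any single SD or untreated PKD rat. The adjusted p over the 16 alternatives was 0.00596 to 0.0796 for *Aif1* and 0.00596 to 0.204 for *Itgam*.

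Of 1598 estimates of single genes under other settings, 27 had the opposite sign, in 6 genes with estimates between −0.20 and 0.19, and 35 genes had none. This total includes settings that cannot move an estimate, such as the exact permutation test or leaving out an SD or control liposome rat. With sample weights *Nos2* was at −0.028. *Lcn2* and *Cntf* were at −0.051 and −0.069 without 18S (also in the fit of the compared groups), at −0.029 and −0.048 without Mrpl19, and at −0.038 and −0.057 with the mean of the specific genes. Without 1 rat, *Il6* ranged from −0.27 to 0.017 (above 0 without treated rat 2), *Mrc1* from −0.078 to 0.31 (below 0 without treated rat 2), *Serpina3n* from −0.45 to 0.18 (0.18 without untreated rat 2 and 0.10 without treated rat 1), *Nos2* from −0.23 to 0.51 (−0.23 and −0.023 without untreated rats 1 and 3, −0.060 and −0.0045 without treated rats 3 and 5), *Lcn2* from −0.10 to 0.19 (below 0 without untreated rats 1 or 4 or treated rats 3 or 4) and *Cntf* from −0.10 to 0.098 (below 0 without untreated rats 3, 4 or 5 or treated rats 2, 3 or 5). In all, leaving out 1 rat moved 27 of the 41 estimates by over 1.5 times or across 0, where 0 of all 41 had passed in the reported fit. The other 14 were *C1s*, *Cd74*, *Edn2*, *Fcgr2a*, *Fgf2*, *Il10*, *Il18*, *Lgals3*, *Mrc2*, *Pgf*, *Socs3*, *Sphk1*, *Tgfb2*, and *Tnfrsf12a*. No paired analysis was possible because the columns of the table carry animal numbers and not the replicate numbers of the labels. Which rats shared a card or a day is not given in the sources used here, and the animal numbers of injected and untreated rats form separate runs, so that if these numbers mark cohorts, cohort and treatment cannot be told apart. With 5 and 6 rats and 1 well each, the intervals limit what could be seen.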

Other observations

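All 5 clodronate-treated rats were above the mean of the untreated PKD rats for 6 of 41 genes and below it for 2. The 6 were *C1s*, *Fcgr2a*, *Lgals3*, *Mrc2*, a collagen-binding receptor of the mannose receptor family, *Sphk1*, and *Tnfrsf12a*, and the 2 were *Il18* and *Fgf2*. *Il18* was at −0.58, −0.65, −0.38, −0.19 and −0.52 in the treated rats and from −0.86 to 0.68 (median 0.17) in the untreated rats. For *Il18* and *Mrc2* the groups overlapped, and the exact permutation test gave p = 0.106 for *Mrc2* and 0.117 for *Il18* before adjustment.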
